A study of Mus musculus with 26 samples.

Results

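The Pax5 locus was examined in H3K4me3 peak lists of Early-B cells and of the Ebf1-/- progenitors from which they were made. Members were taken by position: every peak of either list that overlapped the Pax5 gene or the 50 kb on either side of it, which gave 19 of 79468 peaks. Of these, 11 came from the 48054 peaks of the Early-B list and 8 from the 31414 peaks of the progenitor list. The Early-B cells were mouse Ebf1-/- progenitors that received EBF1 as an EBF1.ER fusion from the MigR1 vector and were grown for 2 days on OP9 stromal cells with 4-O-Hydroxy-tamoxifen and the cytokines SCF, FLT3-L and IL-7. The progenitors carried the same Ebf1-/- genotype, and their culture is not stated in the labels. EBF1 in the Early-B cells therefore came from the vector, and stromal culture and tamoxifen cannot be told apart from EBF1 as differences between the lists. The labels give 2 H3K4me3 samples and 2 input samples per group, but each group had 1 list. There is thus no replicate check, no test was made between the lists, and every comparison below is a description. Read counts are not part of the lists, and sequencing depth is therefore unknown.

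Pax5 encodes a paired-domain transcription factor that commits lymphoid progenitors to the B lineage by switching on B cell genes and silencing genes of other lineages. In mouse B cell development it is switched on after Ebf1, and EBF1 is known to act on its promoter region. An enhancer inside the gene is also known. H3K4me3 is a histone mark concentrated at the start sites of active or poised genes, and unusually long H3K4me3 domains are known at genes that define a cell type.

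In the gene table for mm10, Pax5 spans 44524748 to 44710694 on chromosome 4, a length of 185947 bp, and is transcribed from the higher coordinate downward, with the annotated start site at 44710694. The next protein-coding gene on the upstream side is Zcchc7, a zinc finger gene of nuclear RNA processing, which points away from Pax5 and begins 45863 bp from it. The 250 bases before the start of Pax5 (chr4:44710695-44710944, minus strand) are shown because the lists differ over them, and those before Zcchc7 (chr4:44756309-44756558, plus strand) because the lists do not. Both are from RefSeq, build GRCm38.p6, with CpG sites in capitals.
Pax5: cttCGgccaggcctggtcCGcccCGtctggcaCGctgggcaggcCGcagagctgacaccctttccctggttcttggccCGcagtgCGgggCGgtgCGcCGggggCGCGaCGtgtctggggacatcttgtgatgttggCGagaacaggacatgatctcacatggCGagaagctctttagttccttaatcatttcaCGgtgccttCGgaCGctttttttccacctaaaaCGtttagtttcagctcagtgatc
Zcchc7: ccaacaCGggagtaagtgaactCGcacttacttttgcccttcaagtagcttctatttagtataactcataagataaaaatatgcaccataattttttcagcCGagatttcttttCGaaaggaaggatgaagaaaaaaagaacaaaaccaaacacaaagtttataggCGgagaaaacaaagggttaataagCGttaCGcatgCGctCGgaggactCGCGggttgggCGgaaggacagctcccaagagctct
An Early-B peak covered all 250 bases before Pax5, and progenitor peaks covered 0. Peaks of both lists covered all 250 bases before Zcchc7. The Pax5 stretch held 19 CpG sites and 58.8% G or C, against medians of 10 and 55.6% over 21263 promoter entries of coding genes. The Zcchc7 stretch held 12 CpG sites and 42.0% G or C. Among 963 promoter entries of genes whose start lay in an Early-B peak but in no progenitor peak, the median was 7 CpG sites, against 16 in 11758 entries of genes with a start in a peak of both lists. In CpG number Pax5 was thus above the median of either class.

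On both strands of the Pax5 stretch, the core of the EBF motif, CCCNNGGG, had 0 matches, and it was present in 13.5% of the promoter entries. The PU.1 core GAGGAA, present in 22.2% of entries, also had 0 matches. The E-box CANNTG, the binding sequence of E proteins such as TCF3, had 1 match, which began 94 bases before the start. An E-box match occurred in 62.8% of entries. No motif searched overlaps another in its letters, and these counts describe letters in a 250-base window and say nothing of binding.

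At the start of Pax5, Early-B cells had 1 long peak and progenitors had 2 short ones, which lay on either side of the start site. The Early-B peak ran from 44698526 to 44714789, a length of 16264 bp, with a pileup of 96.8 and a −log10 p of 85.6. Pileup is the peak caller's read coverage and −log10 p its significance on a log scale, both as the authors deposited them. They rank peaks within a list and do not measure change between lists. The first progenitor peak, from 44703683 to 44706436, was 2754 bp long, with a pileup of 26.6 and a −log10 p of 10.0. The second, from 44712772 to 44713685, was 914 bp long, with a pileup of 17.7 and a −log10 p of 3.99. Both progenitor peaks lay wholly inside the Early-B peak and together covered 22.6% of it. The Early-B peak was 5.91 times as long as the longer of them.

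The annotated start site fell in the Early-B peak and in a gap of 6335 bp between the progenitor peaks. The nearer progenitor peak was 2078 bp upstream of the start, and the other began 4258 bp into the gene. The peak inside the gene overlapped the lncRNA 5730488B01Rik, which spans 44702800 to 44705110 inside Pax5. Pax5 is known to have a second promoter inside the gene, but the gene table used here gives 1 start for Pax5, so no peak was assigned to that promoter. Of 17492 coding genes with a start in the table, 753 (4.30%) had it in an Early-B peak and in no progenitor peak, as Pax5 did, and 343 (1.96%) had the reverse. A further 52.3% had a start in peaks of both lists and 41.5% in neither. The 753 starts lay in 747 distinct Early-B peaks, of which 1 was longer than the Pax5 peak and 37 had a larger −log10 p. The longer one measured 18321 bp and held the starts of 2 of the genes. When the start was widened by 1 kb on either side Pax5 kept its class, and when it was widened by 2.5 kb it counted as present in both lists, because the upstream progenitor peak then met it.

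**Figure D1:**
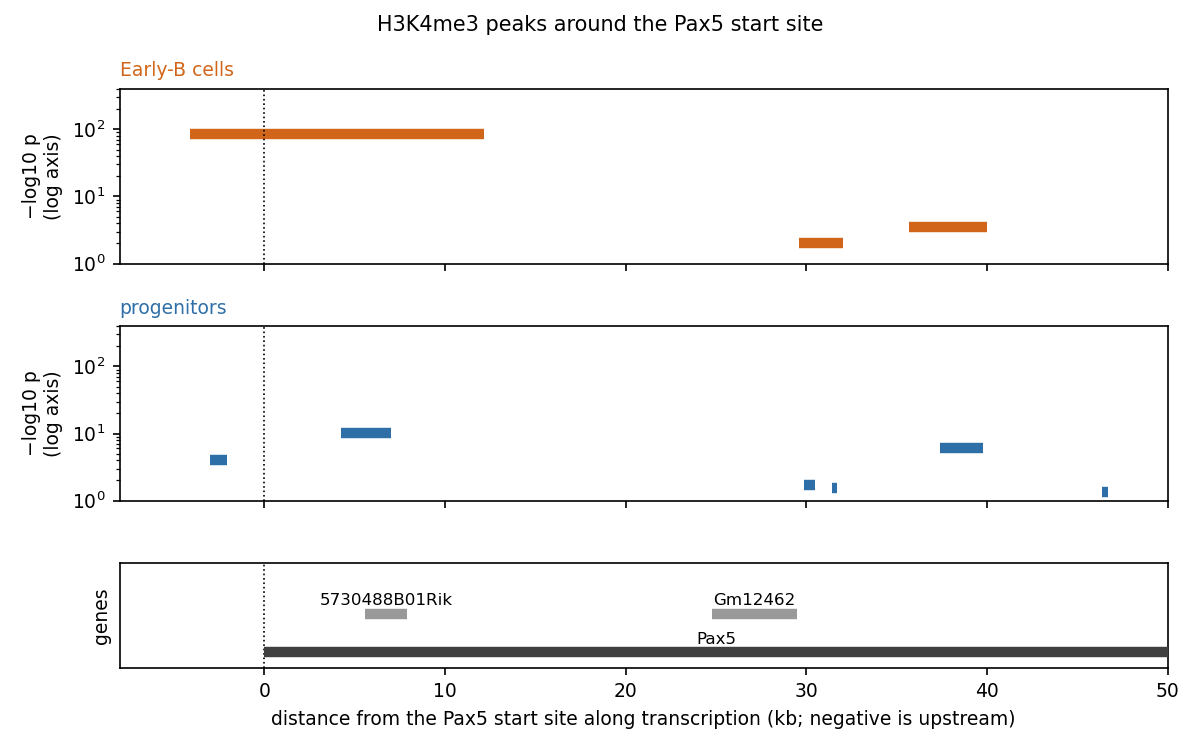
Peaks around the Pax5 start site, Early-B above progenitors. The x axis is the distance from the start along transcription in kb, each bar spans 1 peak, and its height on the y axis is the authors' −log10 p on a log axis; the lowest panel shows genes. The Early-B peak of 16264 bp spans the start (dotted line), which lies in a gap of 6335 bp between progenitor peaks of 914 and 2754 bp.

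Around the start, the Early-B peak was lopsided toward the gene. It reached 4095 bp upstream and 12168 bp downstream, so that 74.8% of its length lay downstream. Over the 64 Early-B peaks of 10 kb or more that held exactly 1 annotated coding start, the median share downstream was 70.1%, with quartiles of 45.7 and 81.3%, and 25 of the 64 were at or above Pax5. The lean of the Pax5 peak was therefore ordinary for long peaks.

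In length the Pax5 peak stood near the end of its list, and in the deposited pileup and −log10 p it did not. Of all Early-B peaks, 0.0208% (10 peaks) were at least as long, 14.6% had at least its pileup and 15.1% at least its −log10 p. Whether the pileup and −log10 p are means over a whole peak is not given, so they may not measure its height. The 2754-bp progenitor peak was ordinary in its own list, where 20.7% of peaks were at least as long and 45.0% had at least its −log10 p. The 914-bp peak had a length reached by 60.9% and a −log10 p reached by 60.2% of progenitor peaks.

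Few long Early-B peaks were as little covered in progenitors. Of 193 Early-B peaks of 10 kb or more, progenitor peaks covered a median of 77.1%, with quartiles of 48.7 and 94.3%. The share at Pax5, 22.6%, was matched or undercut by 21 of the 193, Pax5 included, or 10.9%. Among the 10 peaks at least as long as that of Pax5, the median was 61.4% and 3 peaks were at or below the share at Pax5, itself included. One of these was at Gria2, a glutamate receptor gene, and the other overlapped no coding gene.

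**Figure D2:**
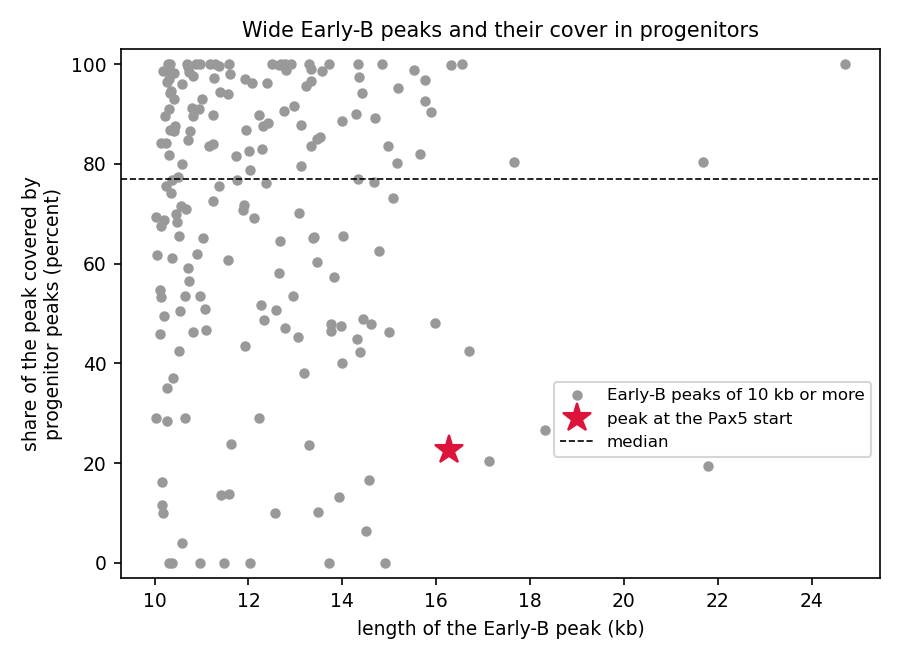
Early-B peaks of 10 kb or more by length (x axis, kb) and by the percent of their bases covered by progenitor peaks (y axis). Each grey point is 1 of the 193 peaks and the dashed line is their median of 77.1%. The star is the peak at the Pax5 start, at 16264 bp and 22.6%.

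Inside the gene and beyond the start domain, peaks lay below the median −log10 p of their list, in both lists, and mostly in the same places. The strongest lay about 36 to 40 kb into the gene. There the Early-B peak ran from 44670697 to 44675024 (4328 bp, pileup 15.8, −log10 p 3.54) and the progenitor peak from 44670904 to 44673272 (2369 bp, pileup 21.4, −log10 p 6.0). The progenitor peak lay wholly within the Early-B one and covered 54.7% of it. Both were ordinary in their own lists, where at least their −log10 p was reached by 61.8% of peaks from Early-B cells and 52.4% from progenitors.

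A second place lay beside the lncRNA Gm12462, which the gene table places from 44681211 to 44685904, on the side toward the 3′ end of Pax5. An Early-B peak of 2417 bp, from 44678692 to 44681108, had a −log10 p of 2.05 and met 2 progenitor peaks of 272 and 619 bp with −log10 p of 1.55 and 1.70. All 3 had a q above 0.05, the false discovery rate of the peak caller. A weaker place still lay near 86 kb into the gene, where a 350-bp Early-B peak (−log10 p 1.90) fell inside a 663-bp progenitor peak (1.60), again with q above 0.05 in both. Private peaks inside the gene were a 714-bp Early-B peak at 44614199 to 44614912 (1.69) and a 323-bp progenitor peak at 44664013 to 44664335 (1.34), both with q above 0.05. Exon positions were not used here, so none of these peaks was assigned to an intron or to the known enhancer inside the gene.

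Over the gene as a whole, Early-B peaks covered 19978 bp, or 10.7% of Pax5, and progenitor peaks 7000 bp, or 3.76%. The difference was greatest near the start. In the part of the gene up to 20 kb from the start, Early-B peaks covered 60.8% and progenitor peaks 13.8%. From 20 to 50 kb into the gene the shares were 22.5% and 11.9%. In the remaining 135946 bp of the gene they were 0.783% and 0.488%. A stretch of 125162 bp, from 44489037 to 44614198, which takes in the 3′ end of Pax5, held no peak of either list.

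Upstream of Pax5, the Early-B list held a pair of peaks that met no progenitor peak. The first, from 44727521 to 44730272, began 16827 bp upstream of the start, was 2752 bp long and had a pileup of 24.0 and a −log10 p of 7.44. The second, from 44740822 to 44742424, was 1603 bp long, with a pileup of 25.9 and a −log10 p of 9.44. Both overlapped no annotated gene, and 45.5% and 41.0% of Early-B peaks had at least their −log10 p. In the 30000 bp from 10 to 40 kb upstream, Early-B peaks covered 14.5% and progenitor peaks 0. These were the strongest Early-B peaks of the window that met no progenitor peak. Over the whole list, 24215 of 48054 Early-B peaks met no progenitor peak, so lacking one is common.

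Beyond the 3′ end of Pax5, within 50 kb, Early-B cells had 3 peaks and progenitors none. They measured 320, 516 and 1104 bp, with −log10 p of 1.69, 5.52 and 5.39. The shortest had a q above 0.05. None overlapped an annotated gene, and they lay 35711 bp or more from the 3′ end. Only 49.6% of all Early-B peaks met a progenitor peak, so peaks without one are common.

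The start of Zcchc7, at the upstream edge of the window, served as a neighbour with a peak in both lists. Its Early-B peak ran from 44754924 to 44760184 (5261 bp, pileup 117, −log10 p 122) and its progenitor peak from 44755046 to 44759766 (4721 bp, pileup 163, −log10 p 191). Progenitor peaks covered 89.7% of the Early-B peak there, against 22.6% at the start of Pax5. The pseudogene Gm12463 and the microRNA gene Mir5120, the other annotated genes of the window, overlapped no peak.

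**Figure D3:**
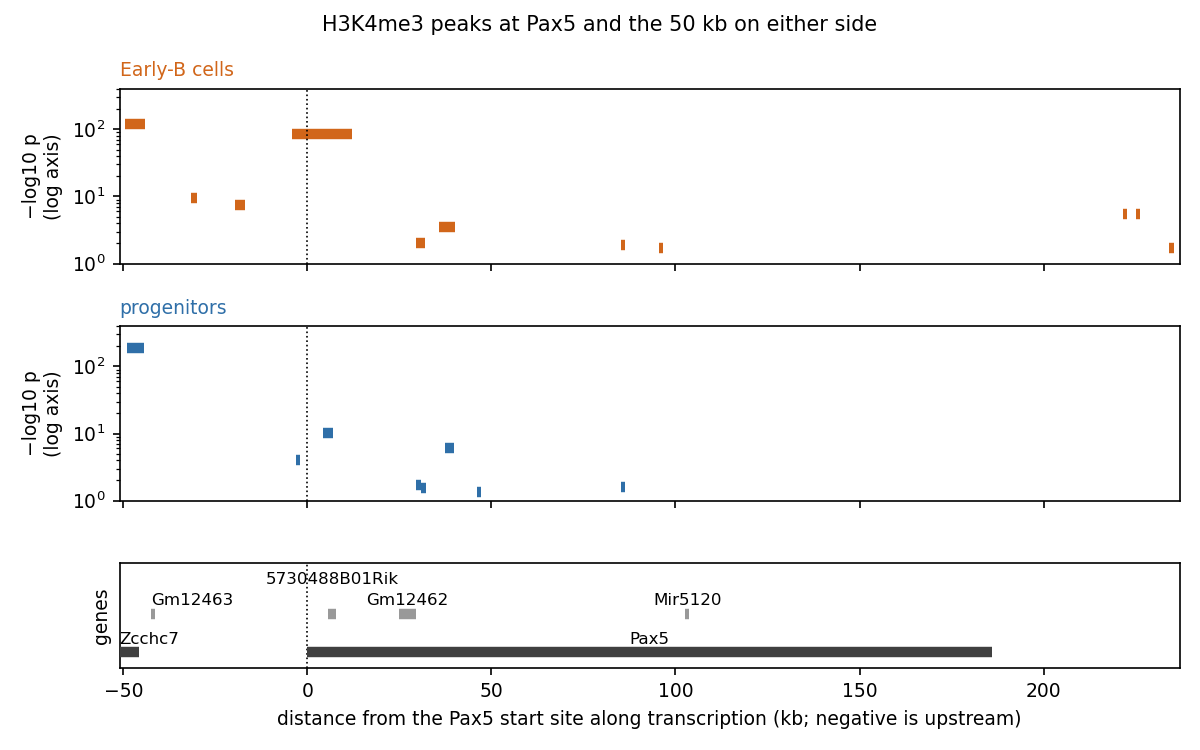
All 19 peaks of the Pax5 window, Early-B above progenitors. The x axis is the distance from the Pax5 start along transcription in kb, with upstream negative; each bar spans 1 peak (the shortest are drawn wider to be seen) and its height on the y axis is the authors' −log10 p on a log axis, with genes in the lowest panel. The strongest progenitor peak of the window is that of Zcchc7 at 191, and the peaks from 10 to 40 kb upstream are in the Early-B panel only.

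Counted over the window, 5 of 11 Early-B peaks (45.5%) met a progenitor peak, against 49.6% of all Early-B peaks, and 7 of 8 progenitor peaks (87.5%) met an Early-B peak, against 77.2% of all progenitor peaks. These shares were near those of the whole lists. A q above 0.05 was found in 4 of 11 peaks from Early-B cells and 4 of 8 from progenitors, against 33.2% and 33.4% of the lists. Covered length differed more than the number of peaks. Early-B peaks covered 35629 bp, or 12.5% of the window of 285947 bp, and progenitor peaks 12635 bp, or 4.42%, a ratio of 2.82. The whole lists covered 83.3 and 56.0 Mb, a ratio of 1.49. Mean pileup over the window's peaks was 33.4 for Early-B cells and 34.8 for progenitors, and the medians were 19.6 and 15.6. Both means include the peak at the Zcchc7 start, with a pileup of 117 in Early-B cells and 163 in progenitors. The start domain alone made up 16264 of the 35629 bp, and progenitor peaks covered 3668 bp of that domain.

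The covered-base ratio was next set beside that of all coding genes. For each gene, bases under peaks were summed over its span and 5 kb on either side, 500 bp was added to both sums, and a gene was called higher or lower in Early-B cells at a log2 ratio of at least 2 or at most −2. Over 16347 coding genes with a peak, 1040 (6.36%) were called higher and 53 (0.324%) lower, and the median log2 ratio was 0.21. Pax5 had 24073 bp in Early-B cells and 7914 bp in progenitors, a log2 ratio of 1.55, and was not called. A ratio at least as high was found at 10.3% of genes. By Early-B covered bases Pax5 ranked far higher, as 79 genes (0.483%), Pax5 included, had at least as many. These sums were not adjusted for gene length, and Pax5 spans 185947 bp. Of those 79, 18 had at least the ratio of Pax5, itself included, and the median log2 ratio of the 79 was 0.82. With peaks of a −log10 p of at least 10 alone in both lists, progenitor cover at Pax5 was the 2754-bp peak. That peak, at 10.03, only just passed. The log2 ratio of Pax5 was then 2.37, past the call, and 4.19% of genes were at or above it. With all peaks, that share was 16.3% when 100 bp was added in place of 500 and 3.50% when 2000 bp was added.

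**Figure D4:**
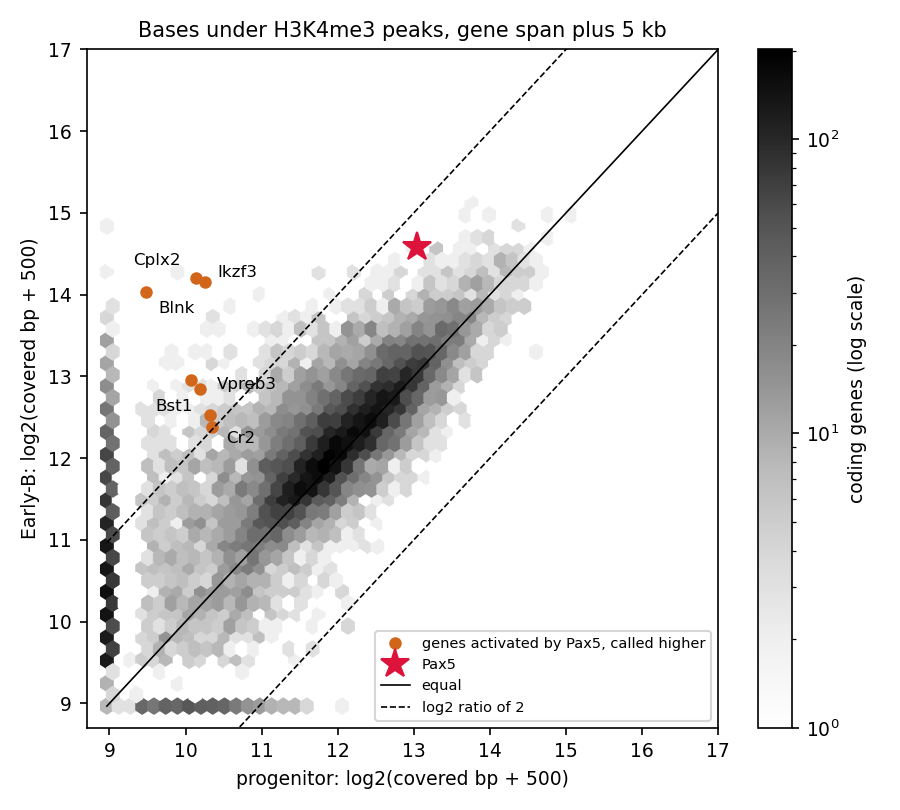
Bases under H3K4me3 peaks in Early-B cells (y axis) and progenitors (x axis), as log2 of covered bp plus 500, over each coding gene's span plus 5 kb. Grey cells count the 16347 genes with a peak, the solid line marks equal cover and the dashed lines a log2 ratio of 2 either way. Pax5 (star) lies at 24073 against 7914 bp, inside the upper dashed line, and 7 genes known to be activated by Pax5 (orange) lie beyond it.

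The coding genes around Pax5 had lower covered-base ratios than Pax5, with Zcchc7 the closest to it. Within 500 kb there were 11 such genes, with log2 ratios from −0.40 to 1.53 and a median of 0.23. All 10 of them with a start in the table had it in peaks of both lists, against 52.3% of all coding genes. These were Clta, Gne, Melk, Zcchc7, Grhpr, Zbtb5, Polr1e, Fbxo10, Tomm5 and Frmpd1. Zbtb5 and Polr1e have the same strongest peak, so these 11 are not all separate. Melk, a mitotic kinase gene on the 3′ side, had 2061 bp against 1863 bp. Grhpr, a gene of glyoxylate metabolism, had 6298 bp against 2650 bp.

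Zcchc7 had a log2 ratio of 1.53, close to that of Pax5, but it came from elsewhere in the gene than the start. Apart from the start peak, its region held 15 Early-B peaks totalling 32185 bp and 9 progenitor peaks totalling 7943 bp. Of the 15, 8 met a progenitor peak and 7 did not, and of the 9, 8 met an Early-B peak. Over the whole lists, 49.6% of Early-B and 77.2% of progenitor peaks met a peak of the other list. The counts at Zcchc7 were thus near the background. The −log10 p of these 15 and 9 peaks ran from 1.41 to 15.7 in Early-B cells and from 1.33 to 11.0 in progenitors. The strongest of them, from 44917125 to 44919999, lay 160567 bp into Zcchc7 and met no progenitor peak.

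Genes known to be switched on by Pax5 had more Early-B cover than most genes. Of 18 such genes, all with a peak, 7 were called higher and 0 lower, with a median log2 ratio of 1.47 against 0.21 for all coding genes. Since 6.36% of all genes were called higher, the share in the list, 38.9%, stood above the background. The list was drawn up with results of these data known, so it is not independent evidence. Blnk, an adaptor of B cell receptor signalling, had 16249 bp in Early-B cells against 216 bp in progenitors (log2 ratio 4.55). Cplx2, a complexin gene, had 18383 bp against 624 bp (4.07). Ikzf3, which encodes the Ikaros family factor Aiolos, had 17776 bp against 726 bp (3.90).

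The other called members had less cover. Vpreb3, a relative of the surrogate light chain genes, had 6856 bp in Early-B cells against 670 bp in progenitors (2.65). Bst1, a cell surface enzyme gene, had 5386 bp against 776 bp (2.21), and the complement receptor gene Cr2 4837 bp against 798 bp (2.04). All 7 had far less progenitor cover than Pax5, whose own ratio fell near the middle of the list. Members with much cover in both lists were not called: Bach2, a repressor in B cells, had 26014 bp against 28753 bp (−0.14), Nedd9 23602 bp against 9634 bp (1.25), Nfatc1 20178 bp against 19412 bp (0.05) and Lef1 14135 bp against 4669 bp (1.50). Of the 13 members with a start in the table, 6 had it in an Early-B peak and no progenitor peak, 5 in both lists and 2 in neither. The shares over all coding genes with a start were 4.30%, 52.3% and 41.5%.

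Genes known to be repressed by Pax5 showed no such shift. Of 10, 9 had a peak, 0 were called either way and the median log2 ratio was 0.02. Over all coding genes with a peak, 6.36% were called higher and 0.324% lower, so 0 calls among 9 genes is near the background. Flt3, a cytokine receptor of progenitors, had 14853 bp in Early-B cells against 9307 bp in progenitors (0.65). Prdm1, which drives plasma cell fate, had 12798 bp against 4440 bp (1.43), Grap2, a T cell adaptor gene, 12789 bp against 14984 bp (−0.22) and Jchain, the joining chain of antibodies, 11481 bp against 11766 bp (−0.03).

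Factors that act upstream of Pax5 in B cell development, or bind at it, had peaks in both lists. Cover was not broad at every member. Their sums ran from 6199 to 24613 bp in Early-B cells and from 3424 to 25434 bp in progenitors. The lowest of their strongest progenitor peaks had a −log10 p of 3.05, where the median of the progenitor list was 6.96. All 10 had a peak, 0 were called and the median log2 ratio was 0.40. With 6.36% of all coding genes called higher and 0.324% lower, 0 of 10 is near the background. Ebf1 had 24613 bp in Early-B cells against 14047 bp in progenitors (0.79), a count over the endogenous locus with its null allele, and the part of the EBF1.ER sequence of the vector in it was not tested. Runx1 had 16910 bp against 25434 bp (−0.57), Irf8 16270 bp against 8988 bp (0.82) and Ikzf1 15135 bp against 18344 bp (−0.27). All 9 with a start in the table had it in peaks of both lists, where Pax5 did not. Of all coding genes with a start in the table, 52.3% did.

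The other members of the PAX family, which act mainly in the development of other organs, had fewer bases under peaks than Pax5 in either list. Of 8, 3 (Pax1, Pax4 and Pax8) had no peak in the region. The rest had at most 7516 bp in Early-B cells and 3431 bp in progenitors, against 24073 and 7914 bp at Pax5. These sums were not adjusted for gene length, and Pax5 has a longer span than any of the others. Pax3 (7516 against 600 bp, log2 ratio 2.87) and Pax9 (2586 bp against no peak, 2.63) were called higher and Pax6 (200 against 3260 bp, −2.43) lower, where 6.36% of all coding genes were called higher and 0.324% lower. With so few genes, these calls show nothing particular to the family. Pax7 had 3500 bp against 3431 bp (0.03) and Pax2 1613 bp against 2659 bp (−0.58). The strongest Early-B peak had a −log10 p of 18.2 at Pax3 and 4.12 at Pax9, where the median of the Early-B list was 5.98. The strongest progenitor peak at Pax6 had 7.10, where the median of the progenitor list was 6.96. Pax7 had a far stronger progenitor peak, with a −log10 p of 53.2, so few covered bases did not mean weak peaks throughout.

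**Figure D5:**
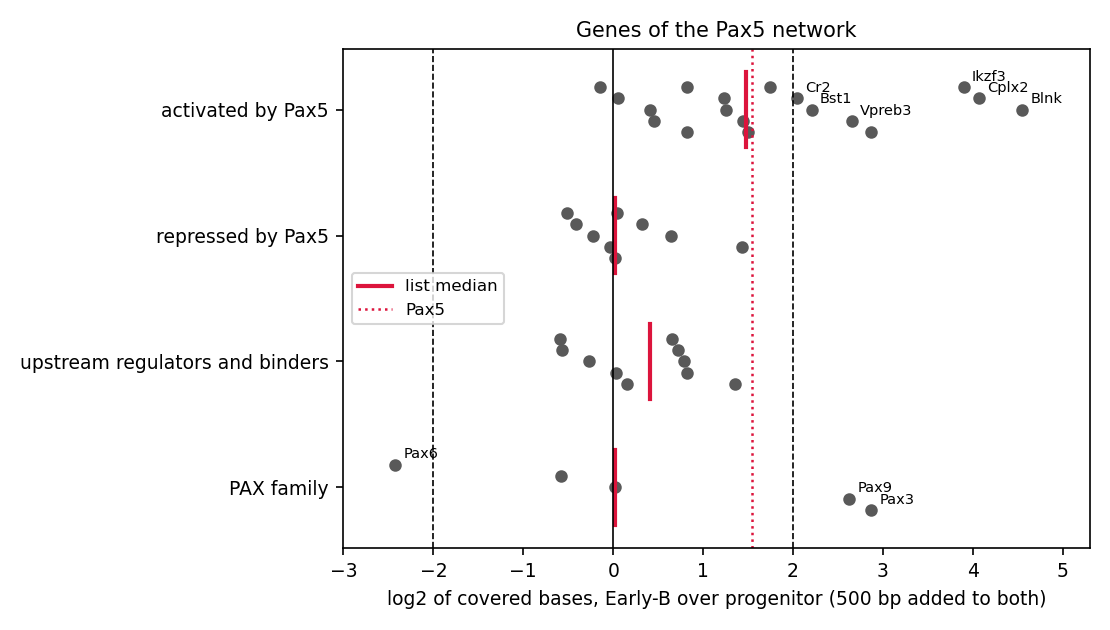
Log2 ratio of covered bases, Early-B over progenitor, for genes of 4 lists, with 500 bp added to both sums. Each point is 1 gene with a peak (vertical scatter is for display), red bars are list medians, dashed lines mark log2 ratios of −2 and 2 and the dotted line marks Pax5 at 1.55. Points beyond 2 are 7 of 18 genes activated by Pax5 and 2 of 5 PAX genes, and the genes repressed by Pax5 centre on 0.02.

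The genes most like Pax5 in cover over these 2 lists were Heg1, Cpeb3, Trps1, Tbc1d16, Itpr2, Hivep2, Chd7 and Fry, in order of distance on the 2 log2 axes, from 0.0917 to 0.245. They had 20792 to 27203 bp in Early-B cells and 7142 to 9251 bp in progenitors. In the Early-B list each had 7 or more peaks, against 5 at Pax5, and in the progenitor list they had from 4 to 10, against 7 at Pax5. Of the 5 with a start in the table, 4 (Heg1, Cpeb3, Itpr2 and Hivep2) had it in peaks of both lists and Fry in a progenitor peak alone. None of the 5 shared the class of Pax5 at the start. Only 4.30% of all coding genes with a start had that class, so 0 of 5 is near the background.

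Cell type markers were checked by the same covered-base ratio. Of the 16347 coding genes with a peak, 6.36% were called higher and 0.324% lower, and 11386 had a log2 ratio above 0. Of 7 B lineage markers 5 were called higher in Early-B cells, with 76960 bp in all against 13650 bp in progenitors. Of 5 progenitor markers 0 were called, with 45680 bp against 55706 bp, and Kit (−1.43) and Cd34 (−1.09) were the lowest. Of 8 stromal markers 3 (Sparc, Postn and Lox) were called higher and all 8 had a log2 ratio above 0, with 29597 bp in Early-B cells against 6598 bp in progenitors, where 4 of the 8 had no peak. Stromal markers thus moved the same way as Pax5, and their part in the difference at Pax5 was not tested. Of 5 T lineage markers 0 were called, with 20532 bp against 21469 bp, and Bcl11b had no peak in either list. In bulk chromatin, fewer marked cells and a shorter marked stretch per cell cannot be told apart.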

How the data were processed

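H3K4me3 ChIP-seq peak lists were used, 1 from Early-B cells and 1 from Ebf1-/- progenitors. Groups were read from the lists' names, which match the sample titles. Bowtie 1.1.2, MACS 1.4.3, mm10 and GRCh38 are named per the submitters' processing notes, with no role. The deposited columns are those of a later MACS version for broad peaks, so the caller's version is unsure. Pooling of replicates, use of input and settings are unknown. Per the file headers, the deposited values are pileup (a coverage signal) and fold enrichment (a ratio to background). The −log10 p and the −log10 q are the authors' own deposited values, recognised by position and range since their column names are damaged. Whether these are means over a peak is not given.

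Coordinates are counted from 1, and genes, strands and start sites came from RefSeq tables of GRCm38.p6, the assembly of mm10. Start sites were given for 17492 of 21887 coding genes. Peaks were shared at an overlap of at least 1 bp. Covered bases were computed with Python 3.11.15, numpy 2.4.6 and pandas 2.3.3, and the functions were tested on simulated data. Start-site classes were added after seeing the files. The members and lists were chosen with earlier results of these data known. Named were the genes of the window, coding genes within 500 kb, called list members, up to 4 other members per list by Early-B cover, and the 8 genes most like Pax5. A few genes enter the counts but are not reported here individually. Other assays of the series were not analysed here.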

Additional observations from a re-analysis of the deposited data

How the results depend on the processing

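No paired analysis was possible because each group had 1 peak list, and no replicate could be left out. The log2 ratio of covered bases in the Pax5 window, 1.50, stayed between 1.33 and 1.78 under 8 alternatives. The number of peaks in the window depended on the threshold. There were 7 Early-B and 4 progenitor peaks at a q of at most 0.05, 6 and 3 at a −log10 p of at least 5, and 2 and 2 at a −log10 p of at least 10. At equal list lengths there were 7 Early-B peaks, and 5 with no flank or with a flank of 10 kb. The share of Early-B peaks that met a progenitor peak was 80% with either of those flanks and 100% when −log10 p had to reach 10. The share of progenitor peaks that met an Early-B peak was 100% at a q of at most 0.05 and at a −log10 p of at least 10, 66.7% at a −log10 p of at least 5 and 50% at equal list lengths. When the overlap had to reach 50% of both peaks, 27.3% of Early-B and 37.5% of progenitor peaks were shared. Progenitor cover of the start domain was 16.9%, all from the 2754-bp peak at 10.03, with a −log10 p threshold of 10. The log2 ratio of Pax5 over span plus 5 kb was 2.37 there and between 1.33 and 1.59 otherwise.

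Of the 16347 coding genes with a peak, 2230 were called higher and 372 lower with 100 bp added in place of 500. With 2000 bp added the numbers were 146 and 2. At a −log10 p of at least 10, 845 of 13715 genes with a peak were called higher and 240 lower. At equal list lengths 787 of 15652 were called higher and 165 lower. Over span plus 50 kb 1315 of 19497 were called higher and 43 lower. Of genes activated by Pax5, 3 were called higher with 2000 bp added and 4 over span plus 50 kb. Of the 10 regulators of Pax5, 1 was called higher over span plus 50 kb and 1 at a −log10 p of at least 10. Of the 5 PAX genes with a peak, 0 were called either way with 2000 bp. At equal list lengths 2 were called higher and 2 lower. At a −log10 p of at least 10 only 2 PAX genes had a peak, of which 1 was called higher and 0 lower. Genes with the start in an Early-B peak only numbered 402 at a −log10 p of at least 10, Pax5 among them. The cause was not tested. Peak lists without counts cannot show whether a missing progenitor peak means a lack of the mark or of depth.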

Other observations

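Cd79b, a signalling chain of the B cell receptor, was another B lineage gene with a long Early-B peak that progenitors barely covered. That peak was 12576 bp long, also reached Gh, and was covered over 10.1% of its length by progenitor peaks. Other such peaks of 10 kb or more overlapped Ms4a6c, of a family of membrane proteins of blood cells (13717 bp, 0 covered), Camk2d, a calcium-dependent kinase gene (14513 bp, 6.47%), Psd3 (11580 bp, 13.9%) and Enpep, a cell surface peptidase gene (11487 bp, 0 covered). These genes were chosen after their values were seen. They are some of the 21 Early-B peaks of 10 kb or more covered no more than that of Pax5. Others of the 21 lay at Gria2, Hoxa3, Ptgir and Grb10, and several overlapped no coding gene. Such peaks were thus not particular to B lineage genes.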
